A study of Bos taurus with 15 samples.

Results

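Subcutaneous adipose tissue of cows in moderate negative energy balance (MNEB) was compared between 1 and 16 weeks postpartum (wkpp). The comparison held every gene entry of the table that the authors deposited for these 2 time points, 13896 genes, spike-in RNAs apart, measured in 6 of the 15 libraries of the series, 3 at 1 wkpp and 3 at 16 wkpp. All cows were Holstein in their first lactation, and the biopsy was fat of the dewlap under the neck. MNEB cows were fed a high energy (HE) diet from a month before calving, which was kept at both time points, and were classed by their energy balance at 1 wkpp, so the 2 groups shared diet and energy balance class and differed in the week after calving. The 9 other libraries came from cows a month before calving (prepartum) and from cows fed a low energy (LE) diet and in severe negative energy balance (SNEB) at 1 and 16 wkpp. For sequencing, 3 animals of the more extreme energy balance at 1 wkpp were selected per group, which in MNEB were cows with a mild deficit. Each cow was biopsied at all time points after a fast, and which cow gave which library was not given in the sources used here. The sample titles carried the mark m1 for the MNEB libraries at 1 wkpp and m2 for those at 16 wkpp, so whatever these marks stand for cannot be told apart from the week.

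In the first weeks of lactation a dairy cow needs more energy, for milk and for maintenance, than she eats. White adipose tissue then releases fatty acids through lipolysis, while the making of fatty acids and triacylglycerols is turned down, partly through low insulin and high growth hormone. As intake catches up with milk yield later in lactation, the tissue can return to storing fat, which draws on enzymes such as stearoyl-CoA desaturase (SCD). Whether it had done so by 16 wkpp was not measured by these libraries, and the comparison asked what differed between them in cows classed as MNEB.

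The deposited tables gave no column for a single library. Whole reads of each library were recovered from the authors' mean counts of the 6 tables for 13892 of the 13896 genes (99.97%), the exceptions being COL1A1, COL1A2, COL3A1 and RN7SL1. A library could be tied to its group but not to a cow, so the libraries of each week were lettered A to C from the deepest. Values below are normalized exon reads, that is, reads on exons divided by the size factor of the library, and a difference is the log2 value at 1 wkpp minus that at 16 wkpp with its standard error (SE), from limma voom with Benjamini-Hochberg adjustment. The 3 libraries of a group were treated as replicates, and p-values measure the spread between them only.

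Depth differed between the libraries of each week. Exon reads on the recovered genes came to 6993576, 2590951 and 2028309 in libraries A, B and C at 1 wkpp and to 7518057, 2911041 and 2819721 at 16 wkpp. Libraries B and C of 1 wkpp stood apart from the other libraries. At an equal depth of 2028309 exon reads, 12273 and 12187 genes were expected to have a read in libraries B and C of 1 wkpp, against 11065 in library A and 10834 to 11539 at 16 wkpp. Genes with a median below 10 over the 15 libraries took 0.484% and 0.432% of their exon reads, and 0.0928% to 0.157% in the other 4. In whole gene reads, which include introns, their log2 levels correlated at 0.96 with each other and at 0.77 to 0.83 with libraries A of 1 wkpp and B and C of 16 wkpp (Pearson's r over genes, so no measure of replication), against 0.88 and 0.90 with library A of 16 wkpp. Of the 92 synthetic spike-in RNAs added, reads were recovered for 86, and the others, with mean counts of at least 8707, are among the most abundant. The recovered spike-in reads, which leave these out, ranged from 2.89 per 100 exon reads in library A of 1 wkpp to 23.6 in library C of 1 wkpp. The part of these differences in the results was not tested, and values without libraries B and C of 1 wkpp are given for some of the genes and lists below.

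The tissue label was checked against cell type markers. The adipocyte genes PLIN1, which coats the lipid droplet, and FABP4, a fatty acid carrier, were high in all 6 libraries, at 1447 to 5629 and 1668 to 17451 normalized exon reads. The summed adipocyte markers (9 genes) ranged from 10436 to 29282 at 1 wkpp and from 5348 to 21133 at 16 wkpp, so the range between libraries was wider than the difference between weeks. In bulk tissue, fewer cells of a type and less RNA per cell cannot be told apart. Summed skeletal muscle markers (19 genes) ranged from 945 to 2547 at 1 wkpp and 1199 to 2169 at 16 wkpp, and mammary epithelium markers (11 genes) from 49.9 to 242 over both weeks, and erythrocyte markers (8 genes) from 9.29 to 180, highest in library C of 1 wkpp. Schwann cell markers (10 genes), which myelinate peripheral nerves, summed to 5589 in library B of 1 wkpp and to 918 to 1679 in the others. On the scale of all 15 libraries, the muscle sums were 1904 to 5347 in MNEB, 439 to 813 prepartum and 458 to 677 in SNEB. Fibroblast sums (9 genes) were 14171 to 29882 in MNEB and at least 44385 in the other groups. Lymphatic sums (10 genes) were at most 1044 in MNEB and at least 2513 in the other groups, while mammary epithelium sums overlapped. The cause was not tested.

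**Figure D1:**
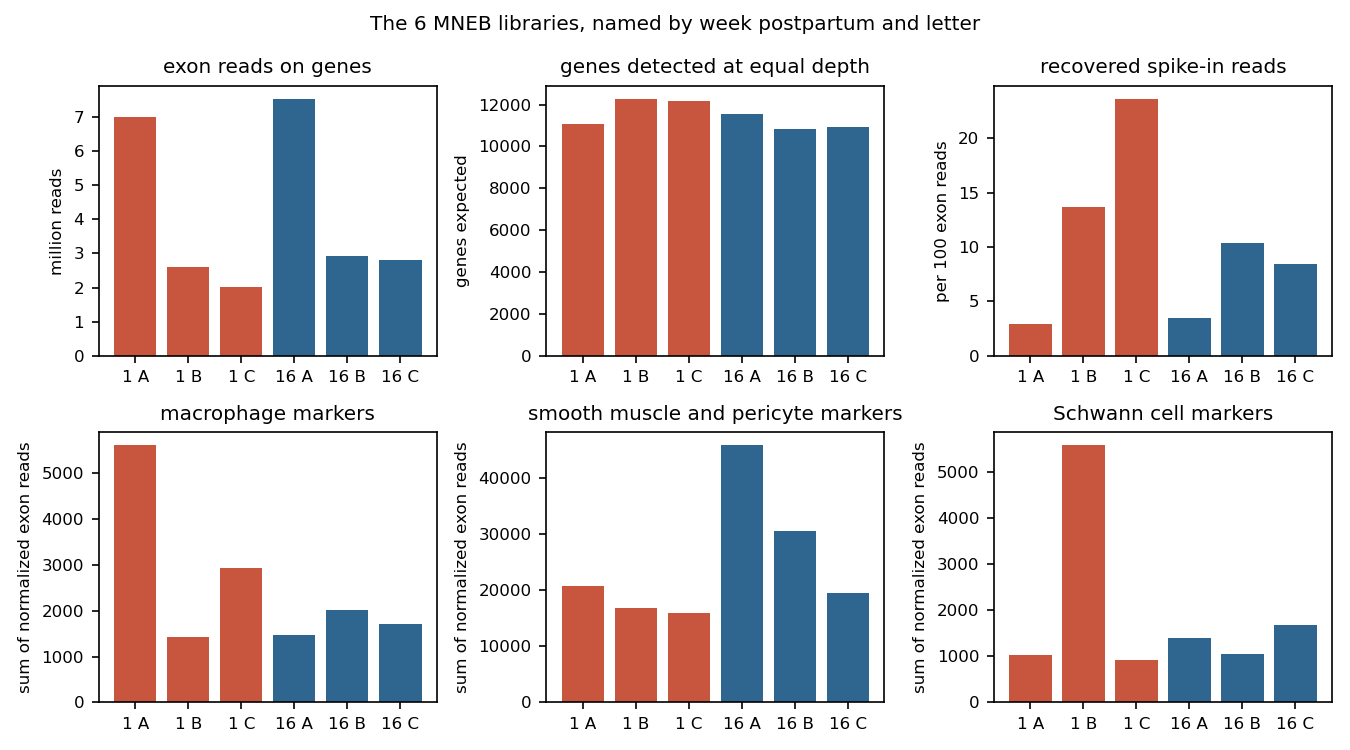
Bars give 6 measures in each MNEB library, named by week (red, 1 wkpp; blue, 16 wkpp) and letter: exon reads, genes expected to be detected at 2028309 exon reads, recovered spike-in reads per 100 exon reads, and the summed normalized exon reads of macrophage, smooth muscle and Schwann cell markers. The Schwann cell sum was 5589 in library B of 1 wkpp and at most 1679 elsewhere, and the macrophage sum was highest, 5614, in library A of 1 wkpp.

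With limma voom, no gene passed the threshold of a differentially expressed gene (DEG) between 1 and 16 wkpp. A count-based test, the kind the authors used, was not run on the recovered reads, and the calls in the deposited tables were not used, so the count of 0 holds for limma on these reads only. A DEG needed an adjusted p below 0.01 in exon reads and in whole gene reads with the same sign, and 0 of the 9799 genes tested in both (0%) met it. In exon reads alone, 0 of 9893 genes had an adjusted p below 0.05, and the lowest adjusted p was 0.20 (limma voom). In whole gene reads alone, 0 of 11394 genes passed, and limma-trend on the same 6 libraries, the other test, also called 0 genes in either kind of reads. Some other settings did call genes, as 2685 in whole gene reads without library A of 1 wkpp (limma voom), and are given in the closing sections. At an unadjusted p below 0.05 there were 1335 genes (13.5%) in exon reads, of which 578 (5.84%) were higher and 757 (7.65%) lower at 1 wkpp, and 1359 (11.9%) in whole gene reads, of which 529 (4.64%) were higher and 830 (7.28%) lower. In both kinds of reads with the same sign there were 788 genes (8.04%), 271 (2.77%) higher and 517 (5.28%) lower. Genes whose 3 libraries of 1 wkpp all lay above the 3 of 16 wkpp in exon reads made up 9.7% of the genes tested, and those whose libraries all lay below made up 10.5% (20.2% together). These genes are called separate below. In whole gene reads 8.7% were separate and higher and 10.7% separate and lower (19.4% together), while 47.7% of the genes had a difference above 0 and 52.3% below 0. In both kinds of reads 4.95% were separate and higher and 7.46% separate and lower. The sections that follow therefore describe levels and differences in single libraries, and no member of any list below passed the adjusted threshold. The median difference over all genes tested was -0.01 and the median SE was 0.29.

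**Figure D2:**
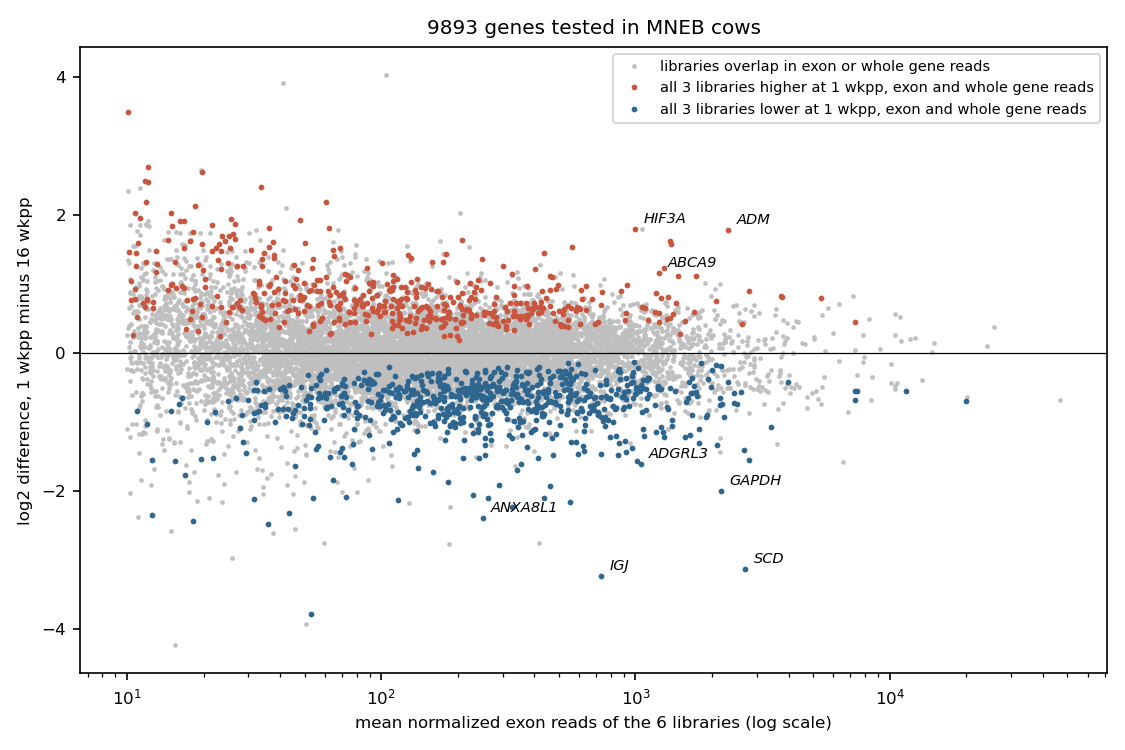
Each point is 1 of 9893 genes, with its mean normalized exon reads over the 6 libraries (log scale) against its log2 difference between 1 and 16 wkpp; coloured points have separate libraries in exon and in whole gene reads (red, higher at 1 wkpp; blue, lower). IGJ and SCD lie at differences of -3.23 and -3.14, and ADM and HIF3A at 1.78 and 1.79, while no gene had an adjusted p below 0.05.

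The genes of fatty acid synthesis were mostly lower at 1 wkpp. SCD, the desaturase that makes oleic from stearic acid, was at 413, 539 and 335 normalized exon reads in libraries A, B and C of 1 wkpp and at 8848, 1314 and 4771 at 16 wkpp. Every library of 16 wkpp lay above every library of 1 wkpp, and the 3 of 16 wkpp themselves spanned a wide range. The difference was -3.14 ± 0.57 (SE, n = 3 and 3; adjusted p = 0.20, limma voom), and -3.13 without libraries B and C of 1 wkpp. Without library B of 16 wkpp, the lowest of its group, it was -3.92, a value that leaves out the library nearest to 1 wkpp. FASN, the synthase of the fatty acid chain, was at 836, 1775 and 2008 at 1 wkpp and at 11125, 996 and 4900 at 16 wkpp, so the groups overlapped through the same library B (difference -1.32 ± 0.73, adjusted p = 0.46, limma voom). Its difference was -0.62 without library A of 16 wkpp, -2.30 without library B of 16 wkpp and -2.07 without libraries B and C of 1 wkpp. Over the 19 members tested, the median difference was -0.56, 16 lay below 0 (50.4% of all genes did), 5 had an unadjusted p below 0.05, all lower at 1 wkpp (7.65% of all genes), and 5 had separate libraries, also all lower (10.5% of all genes). The median was -0.58 without library A of 1 wkpp and -0.48 without libraries B and C.

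NADPH for fatty acid synthesis comes from cytosolic dehydrogenases. IDH1 was at 374, 245 and 295 at 1 wkpp and at 642, 581 and 474 at 16 wkpp, with separate groups (-0.89 ± 0.24, adjusted p = 0.24, limma voom; -0.58 without libraries B and C of 1 wkpp). PGD, of the pentose phosphate pathway, was at 240, 209 and 194 against 399, 251 and 361, also separate (-0.62 ± 0.24). THRSP, a lipogenic regulator, was at 41.8, 92.4 and 168 at 1 wkpp and at 174, 209 and 119 at 16 wkpp, and overlapped through library C of each week. Enzymes further up the pathway overlapped between the weeks, ACLY, which makes cytosolic acetyl-CoA, at 356 to 403 at 1 wkpp and 216 to 560 at 16 wkpp, and ACACA, which makes malonyl-CoA, at 1085 to 1595 and 785 to 1659. SLC2A4, the insulin-dependent glucose transporter GLUT4, was at 81.1, 67 and 59.3 at 1 wkpp and at 119, 159 and 123 at 16 wkpp, with no overlap (-0.88 ± 0.26, adjusted p = 0.26, limma voom).

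Scaled over all 15 libraries, the levels of SCD and some other lipogenic genes in MNEB were far below those before calving, which is given as a description. SLC2A4 was not among them, at 241 to 318 in MNEB at 16 wkpp and 259 to 417 prepartum. SCD averaged 872 ± 193 (SD, n = 3) in MNEB at 1 wkpp and 10117 ± 7628 at 16 wkpp, and 233089 ± 18750 in the prepartum libraries, on that scale. DGAT2, which adds the last fatty acid of a triacylglycerol, averaged 405 ± 62.7 and 1054 ± 656 in MNEB and 23896 ± 2926 prepartum (SD, n = 3 each). The summed fatty acid synthesis genes ranged from 13894 to 17622 in MNEB at 1 wkpp and from 14845 to 57241 at 16 wkpp, against 314008 to 399010 prepartum. Neither week came near the prepartum range, and only library A and library C of 16 wkpp lay well above the range of 1 wkpp.

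Triacylglycerol assembly and lipolysis showed less. DGAT2 was at 228, 167 and 199 at 1 wkpp and at 879, 246 and 433 at 16 wkpp, separate in exon and whole gene reads (-1.18 ± 0.42, adjusted p = 0.30, limma voom), and the difference was -0.72 without library A of 16 wkpp. Its counterpart DGAT1, an unrelated enzyme for the same step, was the other way, at 681, 560 and 616 against 406, 391 and 487 (0.53 ± 0.20), though its groups overlapped in whole gene reads. The median over the 18 tested members of the assembly and lipid droplet list was -0.12, with 2 separate in each direction, shares near those of all genes (9.7% higher and 10.5% lower). Among lipolysis genes, the first lipase PNPLA2 was at 1458, 1446 and 1260 at 1 wkpp and at 1445, 922 and 667 at 16 wkpp, and the hormone-sensitive lipase LIPE at 4126, 3590 and 2336 against 4481, 2024 and 952, so both overlapped through library A of 16 wkpp. The list had a median of 0.48 over 15 members tested, with none at an unadjusted p below 0.05 and none separate. Without library A of 1 wkpp its median was -0.08, and without library C of 16 wkpp 0.00. The adipocyte markers also had a median of 0.48, and 0.012 without library C of 16 wkpp, and some members of the lipolysis list inhibit the process. Leptin (LEP), the satiety hormone of fat cells, was low in both weeks, at 28.4, 58.9 and 83.8 against 75.9, 17.9 and 23.6 (0.13 ± 0.60), and its sign changed with the libraries left out and in whole gene reads. Fatty acid uptake and oxidation had a median of 0.13 over 18 members, with none at an unadjusted p below 0.05. Without single libraries this median was -0.33 to 0.28. Cholesterol synthesis had a median of -0.36 over 16 (-0.17 without libraries B and C of 1 wkpp and -0.088 without library A of 16 wkpp), with 14 below 0 (50.4% of all genes). HMGCS1, the HMG-CoA synthase, was separate at 175, 184 and 64.6 against 290, 228 and 220 (-0.86 ± 0.36, and -0.50 without libraries B and C of 1 wkpp).

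**Figure D3:**
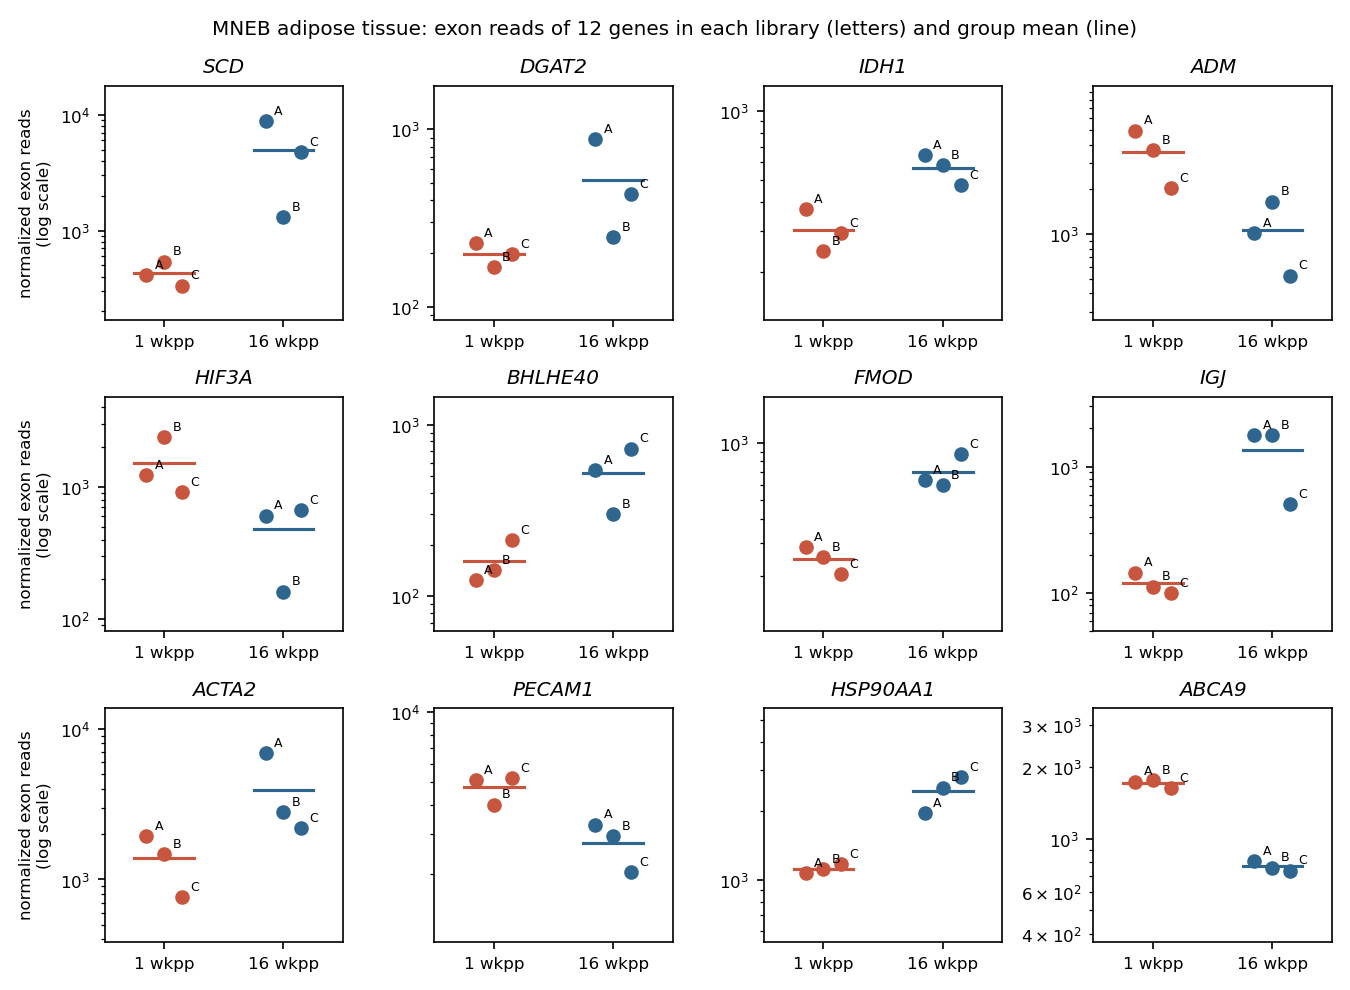
Normalized exon reads (log scale) of 12 named genes in each MNEB library (letters; red, 1 wkpp; blue, 16 wkpp), with the mean of the 3 libraries as a line. The libraries of the weeks do not overlap in any of the 12 genes, which were picked from those named in the text with their values known; ADM, HIF3A, PECAM1 and ABCA9 are higher at 1 wkpp.

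Genes of the hypoxia response and of vessels went in both directions. ADM, the vasodilator peptide adrenomedullin, was at 4959, 3692 and 2041 at 1 wkpp and at 1020, 1655 and 525 at 16 wkpp, the lowest library of 1 wkpp lying above the highest of 16 wkpp (1.78 ± 0.45, adjusted p = 0.23, limma voom). HIF3A, a hypoxia-inducible factor that can oppose the other family members, was at 1229, 2397 and 911 against 606, 161 and 664 (1.79 ± 0.55, adjusted p = 0.27, limma voom), and 1.13 without library B of 16 wkpp. Both genes were also separate in whole gene reads. LDHA, a glycolytic member of the list, which turns pyruvate into lactate, was at 67.1, 36.2 and 82.0 against 183, 102 and 368 (-1.67 ± 0.49), and PGK1 was at 431, 230 and 180 against 662, 421 and 838, with a small overlap. GAPDH, a glycolytic enzyme outside the list, was at 615, 740 and 995 at 1 wkpp and at 2486, 1819 and 6406 at 16 wkpp (-2.0 ± 0.42, adjusted p = 0.21, limma voom). GAPDH, LDHA and PGK1 have many processed copies in mammalian genomes, so their read counts are uncertain, and SLC2A1, the basal glucose transporter, was at 29.4, 127 and 43.6 against 331, 65.3 and 520, with overlap. Of the 18 members of the hypoxia list tested, 6 were higher and 4 lower at an unadjusted p below 0.05 (5.84% and 7.65% of all genes), and the median was 0.15.

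Markers of blood endothelium were mostly higher at 1 wkpp. PECAM1, the junction protein CD31, was at 5082, 3996 and 5207 at 1 wkpp and at 3278, 2914 and 2039 at 16 wkpp (0.82 ± 0.25, adjusted p = 0.27, limma voom). ROBO4, a guidance receptor of endothelium, was at 3687, 3578 and 3505 against 2188, 2490 and 1329 (0.90 ± 0.27), and KDR, the main VEGF receptor, at 4786, 1316 and 1408 against 1171, 982 and 706. All 3 were separate in exon and whole gene reads, and KDR was far higher in library A of 1 wkpp than in any other. Over the 12 markers the median was 0.45, 11 lay above 0 (49.6% of all genes did) and 5 had separate libraries, all higher (9.7% of all genes). The summed level ranged from 21323 to 40065 at 1 wkpp and from 16398 to 22630 at 16 wkpp, and overlapped. The list's median was 0.26 without library A of 1 wkpp and 0.94 without libraries B and C.

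Smooth muscle and pericyte markers, which stand for the vessel wall, went the other way. ACTA2, smooth muscle actin, was at 1944, 1478 and 764 at 1 wkpp and at 6872, 2806 and 2184 at 16 wkpp, with no overlap (-1.41 ± 0.46, adjusted p = 0.27, limma voom), and the difference was -0.93 without library A of 16 wkpp and -0.77 without libraries B and C of 1 wkpp. TAGLN, an actin-binding protein of the same cells, was at 1669, 1057 and 595 against 5507, 2455 and 1564, and CSPG4, the pericyte proteoglycan NG2, at 380, 280 and 197 against 907, 418 and 409. TAGLN overlapped between library A of 1 wkpp and library C of 16 wkpp, and CSPG4 did not overlap. Of the 12 markers 11 lay below 0 (50.4% of all genes), with a median of -0.88 and 4 separate, all lower at 1 wkpp (10.5% of all genes). Summed, they ranged from 15989 to 20790 at 1 wkpp and from 19571 to 45864 at 16 wkpp, and the median was -0.42 without libraries B and C of 1 wkpp.

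Genes of the extracellular matrix lay on both sides of 0. FMOD, fibromodulin, which binds collagen fibrils, was at 284, 252 and 206 at 1 wkpp and at 638, 602 and 870 at 16 wkpp (-1.48 ± 0.24, adjusted p = 0.20, limma voom). POSTN, periostin, a matrix protein of remodelling tissue, was at 92.9, 69.7 and 40.1 against 967, 90.9 and 1255, overlapping through library B of 16 wkpp. Its difference was -2.75 ± 0.99 (adjusted p = 0.31, limma voom), and -3.96 without that library, the one nearest to 1 wkpp. FN1, fibronectin, followed the same pattern of libraries, at 5037, 2688 and 1370 against 16293, 2725 and 11164. Other members were higher at 1 wkpp, as COL15A1, a collagen of basement membranes, was at 7281, 5509 and 7520 against 4953, 2910 and 4118 (0.79 ± 0.27), and elastin (ELN) at 2597, 3842 and 1741 against 1503, 1333 and 1278 (0.92 ± 0.29). The median over 17 tested members was -0.44, with 5 lower and 2 higher at an unadjusted p below 0.05 (7.65% and 5.84% of all genes). THY1, a surface protein of fibroblasts, was at 417, 318 and 408 against 1216, 748 and 1282 (-1.47 ± 0.26). The glucocorticoid-responsive list had a median of -0.06 over 15 members.

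**Figure D4:**
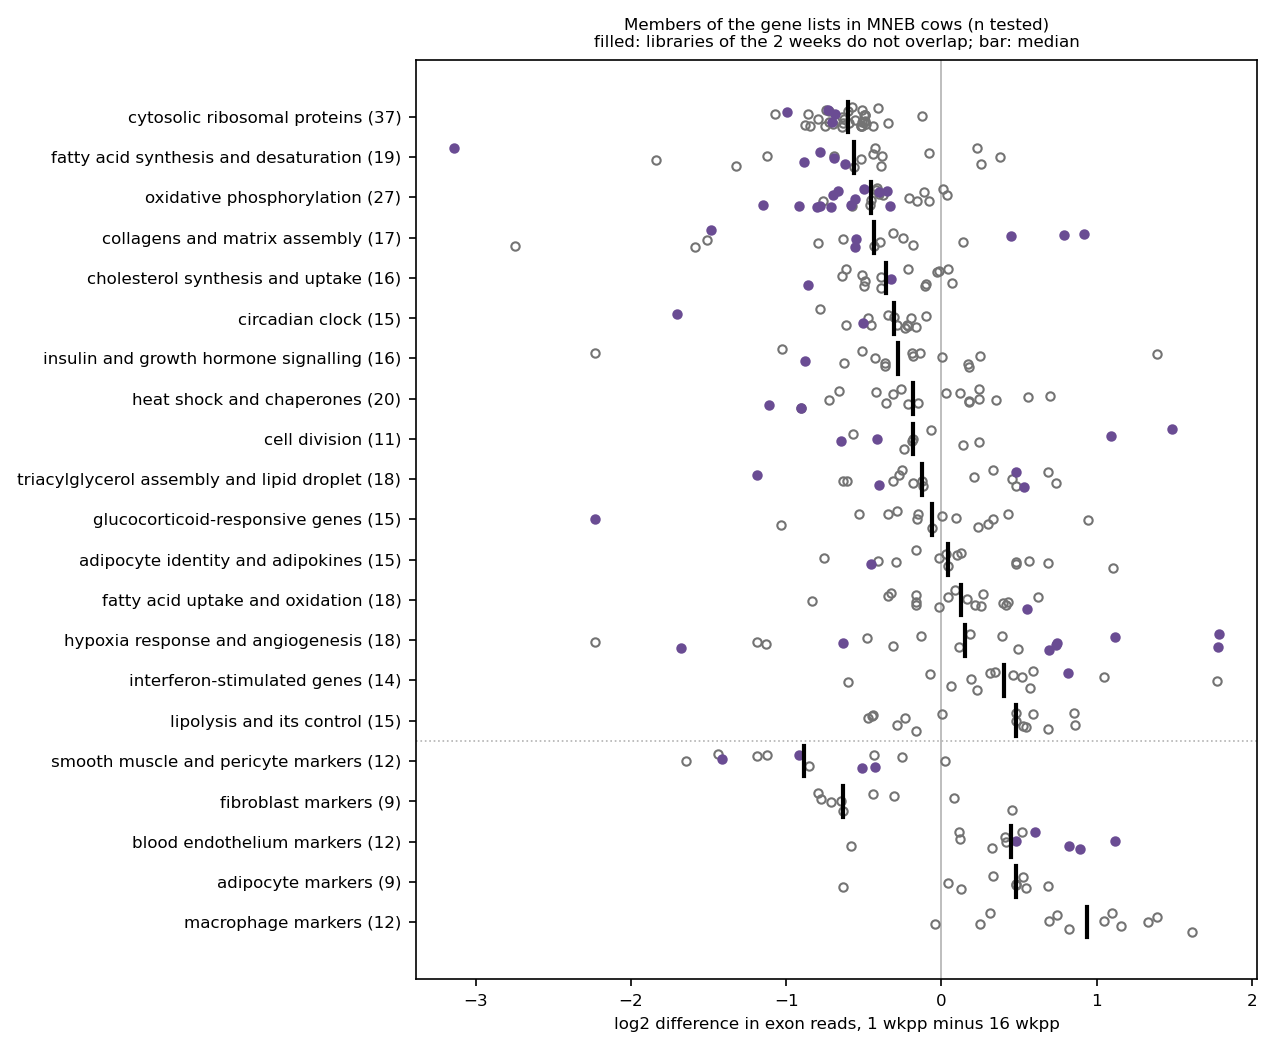
Points give the log2 difference between 1 and 16 wkpp of each tested member of 16 pathway lists and 5 marker lists (number tested in brackets), filled where the libraries of the weeks do not overlap, with the median of the list as a bar. All 37 ribosomal protein genes and all 15 clock genes lie below 0, and the macrophage markers have the highest median, 0.94.

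The circadian clock list lay wholly below 0. BHLHE40, a repressor of the clock that also answers to hypoxia and nutrients, was at 124, 142 and 213 at 1 wkpp and at 545, 302 and 725 at 16 wkpp (-1.70 ± 0.35, adjusted p = 0.21, limma voom). NR1D1, the nuclear receptor REV-ERB alpha, was at 559, 435 and 899 against 1127, 726 and 1354, and BHLHE41, the close relative of BHLHE40, at 98.1, 89.8 and 129 against 139, 129 and 174. BHLHE40 and BHLHE41 were separate in exon and whole gene reads and NR1D1 overlapped. All 15 members had a difference below 0, from -1.70 to -0.10, with a median of -0.31 (-0.63 in whole gene reads and -0.68 without libraries B and C of 1 wkpp), but 2 had an unadjusted p below 0.05 (7.65% of all genes were lower at that p). The hour of the biopsies was not given in the sources used here.

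Genes of oxidative phosphorylation, the respiratory chain and ATP synthase of mitochondria, were mostly lower at 1 wkpp, with differences from -1.15 to 0.034. ATP5A1, a subunit of ATP synthase, was at 505, 389 and 443 at 1 wkpp and at 740, 867 and 719 at 16 wkpp (-0.80 ± 0.21, adjusted p = 0.23, limma voom). NDUFB8, of complex I, was at 68.2, 89.8 and 73.3 against 135, 122 and 179, and SDHD, of complex II, at 172, 236 and 251 against 268, 466 and 399. UQCRB, of complex III, was at 28.4, 45.6 and 31.4 against 78.3, 98.6 and 48.5, and COX5B, of complex IV, at 95.0, 145 and 110 against 162, 206 and 186. These 5 genes, of each complex in turn, all had separate groups. Of the 27 members tested, 25 lay below 0 (50.4% of all genes) and 13 had separate libraries, all lower at 1 wkpp, in exon and in whole gene reads, where 10.5% of all genes tested were separate and lower in exon reads. The summed level was 5501 to 6436 at 1 wkpp and 7648 to 8325 at 16 wkpp. The median was -0.46, and -0.31 without libraries B and C of 1 wkpp.

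Cytosolic ribosomal proteins were below 0 in all 37 genes tested, with a median of -0.60 and a range from -1.07 to -0.13, where 50.4% of all genes lay below 0, 10 had an unadjusted p below 0.05, all lower (7.65% of all genes), and 4 had separate libraries, a share near the 10.5% of all genes. RPL3 was at 2109, 1501 and 1897 at 1 wkpp and at 2241, 3479 and 3402 at 16 wkpp and was among the separate ones, with library A of 16 wkpp close to 1 wkpp. Many ribosomal protein genes have near-identical copies, so single counts are uncertain. Summed, they ranged from 52376 to 70658 at 1 wkpp and from 64381 to 122344 at 16 wkpp, and overlapped. Among 20 chaperones the median was -0.18, and -0.058 without library A of 1 wkpp, and 11 lay below 0 (50.4% of all genes). At an unadjusted p below 0.05 there were 5, all lower (7.65% of all genes), and 2 were separate, both lower (10.5% of all genes). HSP90AA1, the inducible HSP90, was at 1066, 1115 and 1171 against 1953, 2524 and 2806 (-1.11 ± 0.22, adjusted p = 0.20, limma voom), and CALR, a calcium-binding chaperone of the endoplasmic reticulum, at 1217, 1144 and 1483 against 1910, 1814 and 3867. Both were separate in exon and whole gene reads.

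Immune markers varied between libraries of the same week. IGJ, the joining chain of secreted antibodies and a gene of plasma cells, was at 145, 113 and 99.5 at 1 wkpp and at 1772, 1773 and 502 at 16 wkpp (-3.23 ± 0.49, adjusted p = 0.20, limma voom). Every library of 16 wkpp lay above those of 1 wkpp, and the difference was -3.86 without library C of 16 wkpp, the lowest of its group. POU2AF1, a coactivator of B cells, was at 4.65, 6.7 and 3.49 against 25.1, 26.9 and 7.86, with library C the lowest of each week in both genes, while MS4A1, the B cell protein CD20, was at 12.9, 6.7 and 26.2 against 1.45, 20.5 and 0. The median of the 5 markers of B and plasma cells tested was 0.38, with 3 members above 0 and 2 below, and -1.04 without libraries B and C of 1 wkpp and -0.87 without library C alone. On the scale of all 15 libraries, IGJ averaged 242 ± 44.1 in MNEB at 1 wkpp, 2722 ± 1462 at 16 wkpp and 833 ± 348 prepartum (SD, n = 3 each).

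Macrophage markers were high in library A of 1 wkpp. CSF1R, the receptor that macrophages need to survive, was at 1539, 603 and 1284 at 1 wkpp and at 632, 491 and 673 at 16 wkpp, and the scavenger receptor CD163 at 1343, 291 and 466 against 229, 319 and 246. ITGAM, the integrin CD11b, was at 553, 76.4 and 178 against 58.5, 85.8 and 72.0. In all 3 genes library B of 1 wkpp lay within the range of 16 wkpp, and none was separate in exon reads. The summed markers (12 genes) came to 5614, 1432 and 2937 against 1476, 2010 and 1704. Their median was 0.94 over 12 members, 0.30 without library A of 1 wkpp and 1.75 without libraries B and C. SPP1, osteopontin, was at 1849 in library A of 1 wkpp, at 17.4 and 340 in libraries B and C of that week, and at 68.1 to 128 at 16 wkpp. Interferon-stimulated genes had a median of 0.41 over 14 members and of -0.16 without library A of 1 wkpp.

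Other markers gave little. Fibroblast markers had a median of -0.63 over 9 genes, with none separate and decorin (DCN) at 1948, 4393 and 4081 against 3490, 8121 and 6464. In the keratinocyte list PERP, a desmosome protein, was at 5.68, 20.1 and 19.2 against 81.2, 47.4 and 52.4, and ANXA8L1, an annexin, was at 61.4, 63.0 and 105 against 486, 169 and 623. Both were separate in exon reads, while the median of the 6 tested members was 0.08 and the summed list overlapped at 114 to 579 against 295 to 778. The medians were 0.20 for lymphocyte markers (5 tested), 0.51 for Schwann cell markers (10), -0.06 for mast cell markers (5), 0.02 for lymphatic markers (4), 0.81 for mammary epithelium (3), 0.22 for skeletal muscle (6) and 0.06 for the erythrocyte gene tested (1). Each of these medians, and that of the keratinocyte list, took either sign when single libraries were left out. The insulin and growth hormone list had a median of -0.28 over 16 members, the adipocyte identity list 0.04 over 15, and the cell division list -0.18 over 11.

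Several genes that the study followed by name were too low for the test. CCL21, a chemokine of lymphatic vessels, was at 2.58, 6.7 and 20.9 at 1 wkpp and at 0.967, 1.28 and 10.5 at 16 wkpp. STAB2, a hyaluronan receptor, was at 1.03, 18.8 and 26.2 against 1.93, 0 and 0, and MAPK10, a neuronal kinase, at 0.516, 28.1 and 14.0 against 1.45, 3.84 and 0. SNAP91 (0.516, 16.1 and 33.2 against 3.87, 0 and 1.31), FGF14 and TRPM8 had the same order, with libraries B and C of 1 wkpp above all others, the 2 libraries in which more genes were expected at equal depth. These 6 genes had means below 10 and were left out of the test in exon reads. The adipokines among the named genes were C1QTNF1, at 529, 393 and 393 against 541, 660 and 584 (-0.45 ± 0.21, and -0.17 without libraries B and C of 1 wkpp) and separate, and SERPINF1, at 75.9, 38.9 and 96.0 against 88.5, 120 and 145 (-0.76 ± 0.35, and -0.44 without library B of 1 wkpp), with TF, transferrin, at 47.5, 38.9 and 45.4 against 229, 30.7 and 82.5.

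Genes outside the lists were named after their values were seen, as those of smallest p with an unadjusted p below 0.05 and separate libraries in both kinds of reads and a mean of at least 50. There were 168 such genes higher and 410 lower at 1 wkpp, counts that served to choose names, since no gene passed the adjusted threshold. Without the limits on mean and separation, 2.77% of the genes tested in both kinds of reads were higher and 5.28% lower. ABCA9, a transporter of the ABC family, was at 1733, 1766 and 1628 at 1 wkpp and at 806, 757 and 735 at 16 wkpp (1.16 ± 0.19, adjusted p = 0.20, limma voom). CTNS, the cystine exporter of lysosomes, was at 261, 204 and 213 against 85.1, 99.9 and 91.7 (1.31 ± 0.23), and NR1H3, the sterol receptor LXR alpha, at 452, 453 and 438 against 216, 257 and 147 (1.14 ± 0.24). The rule that chose these 3 genes favours a small spread within a week, so their values are a description. NOTCH4, a Notch receptor of endothelium, was at 1050, 1171 and 1481 against 681, 606 and 592. THBS2, the matrix protein thrombospondin-2, was at 1715, 1831 and 2617 against 443, 693 and 1003 (1.57 ± 0.32), the opposite of FMOD and POSTN.

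Among the lower genes, ADGRL3, an adhesion receptor known from neurons, was at 535, 494 and 473 at 1 wkpp and at 2149, 1460 and 1193 at 16 wkpp (-1.62 ± 0.25, adjusted p = 0.20, limma voom). TXN, thioredoxin, a reducer of protein disulfides, was at 120, 151 and 136 against 420, 289 and 423 (-1.47 ± 0.24). PCOLCE2, which helps to trim procollagen, was at 172, 245 and 215 against 582, 606 and 427, and RERG, a small GTPase, at 79.0, 54.9 and 108 against 364, 254 and 237. The rule that chose these 4 genes required that their libraries did not overlap. When all 15 libraries shared 1 estimate of the spread, 26 of 10609 genes (0.245%) had an adjusted p below 0.05 in exon reads, 6 (0.0566%) higher and 20 (0.189%) lower at 1 wkpp, and 0 in whole gene reads (limma voom). With limma-trend on the same libraries, run after the data were seen, there were 209 (1.97%), 65 (0.613%) higher and 144 (1.36%) lower, in exon reads and 78, 20 higher and 58 lower, in whole gene reads. ABCA9, ADGRL3 and RERG (adjusted p = 0.019 each), HSP90AA1 and IGJ (0.034 each), TXN and HOPX (0.049 each), NR1H3, GAPDH and ATP5A1 (0.050 each) were among the 26, while SCD had an adjusted p of 0.17 there.

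The change between the weeks was then compared with that in SNEB cows, whose libraries are other ones. No gene passed the test of a difference between the energy balance groups in its change, as 0 of 10522 genes (0%) had an adjusted p below 0.05 for the interaction of week and group, and 517 (4.91%) had an unadjusted p below 0.05 (limma voom on 12 libraries, lowest adjusted p = 0.24). In that fit ADM differed by 1.78 ± 0.45 between the weeks in MNEB and by 1.78 ± 0.49 in SNEB, and HIF3A by 1.78 ± 0.92 and 1.71 ± 0.91. FMOD (-1.46 ± 0.38 and -1.71 ± 0.40), THY1 (-1.46 ± 0.38 and -1.54 ± 0.42) and ANXA8L1 (-2.43 ± 0.68 and -1.96 ± 0.52) also lay on the same side of 0 in both. For SCD the values were -3.11 ± 1.08 and -1.90 ± 1.17, with a difference of -1.21 ± 1.60 that leaves a wide interval. IGJ and ADGRL3, given here with their values known, had a negative value in MNEB and a value near 0 in SNEB, without passing the test of the difference. IGJ was at -3.20 ± 0.53 in MNEB and -0.37 ± 0.44 in SNEB (difference -2.83 ± 0.70, adjusted p = 0.96, limma voom), and ADGRL3 at -1.60 ± 0.24 and 0.24 ± 0.24 (-1.84 ± 0.34, adjusted p = 0.46, limma voom). TPPP, a microtubule-binding protein named after its values were seen, had the smallest p for the difference (-0.84 ± 0.20 and 0.85 ± 0.17, adjusted p = 0.24, limma voom). LEP was at 0.05 ± 0.63 in MNEB and 4.77 ± 0.58 in SNEB (adjusted p for the difference = 0.46, limma voom), and was the gene of SNEB with an adjusted p below 0.05 between the weeks, 1 gene in all.

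**Figure D5:**
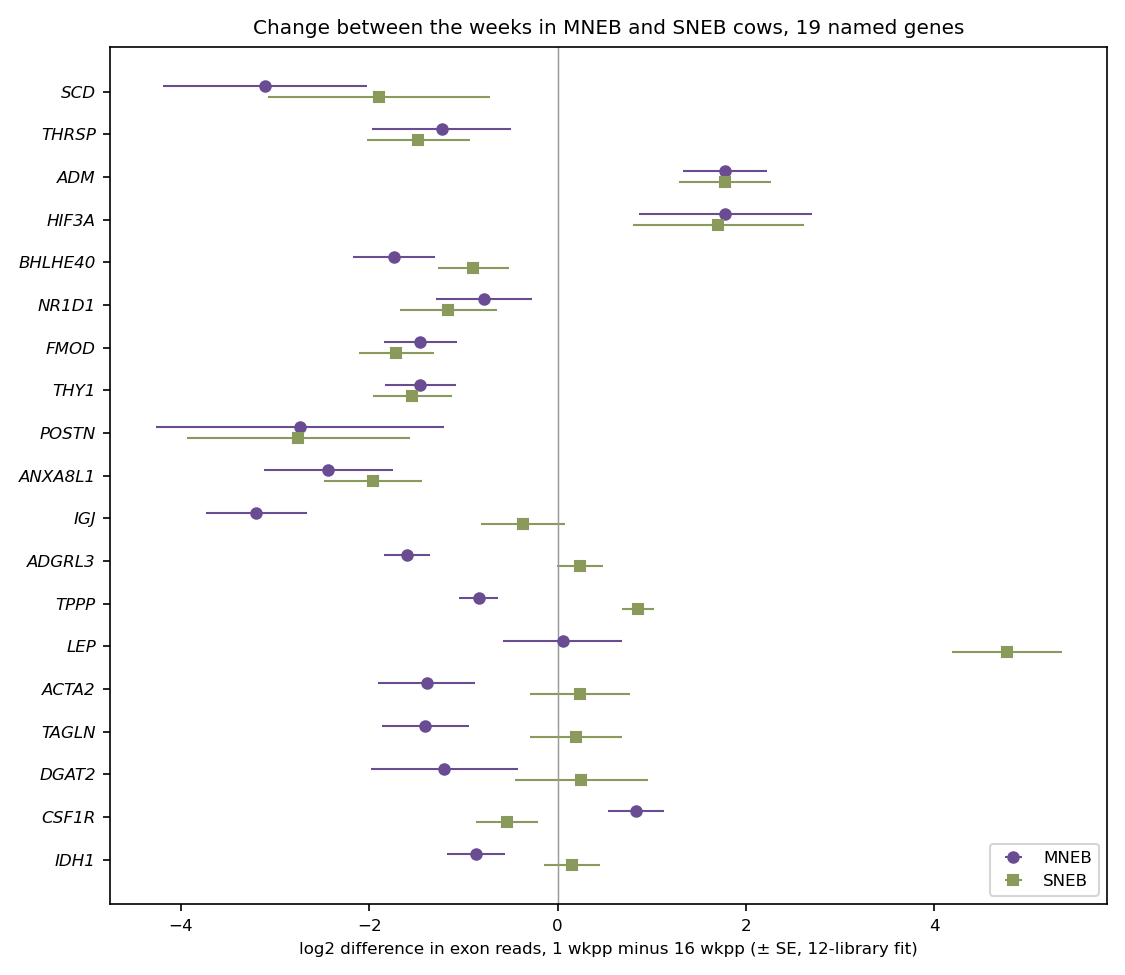
The log2 difference in exon reads between 1 and 16 wkpp of 19 named genes in MNEB (circles) and SNEB (squares), with bars for 1 SE, from the fit of 12 libraries. ADM, HIF3A, FMOD, THY1 and ANXA8L1 have close values in the 2 groups, while IGJ, ADGRL3, TPPP and LEP are apart, with 0 genes past an adjusted p of 0.05 for the difference.

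In the same fit of 12 libraries, the median over the tested members of each list is given for both groups side by side. Lipolysis had a median of 0.40 in MNEB and 0.50 in SNEB, adipocyte markers 0.40 and 0.46, blood endothelium 0.45 and 0.48, and the clock list -0.33 and -0.32. Collagens and matrix assembly had -0.41 and -0.72. Oxidative phosphorylation had -0.42 in MNEB and -0.093 in SNEB, ribosomal proteins -0.60 and -0.080, smooth muscle markers -0.87 and 0.33, macrophage markers 0.96 and -0.37, and fatty acid synthesis -0.61 and -0.16. The differences between these medians were not tested. Over both weeks, spike-in RNAs made up 39.8% of the summed mean exon counts in MNEB and 3.83% in SNEB. The study also lists a lower alignment rate for every MNEB library than for any SNEB library. Such differences between libraries cannot be told apart from the energy balance group here.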

How the data were processed

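RNA of dewlap adipose tissue was depleted of ribosomal RNA and sequenced as strand-specific single-end reads. According to the submitters' processing notes and the study's methods, the authors used bcl2fastq 2.15.0, Cutadapt 1.3, TopHat2 against bosTau8 and htseq-count, and ran DESeq2 on exons and on entire genes for each of 6 pairs of groups. Each deposited table holds for every gene the mean over 6 libraries of counts divided by the authors' size factors, unit other, to 15 digits, together with the authors' log2 fold changes, standard errors, p-values and scores, which were not used; 0 columns belonged to other samples.

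Each mean is a sum of whole reads times a step per library. The steps and whole reads of the 15 libraries were solved jointly from the 6 tables, which also gives each library's group, and low counts of a library shared by tables agreed. The step was tested on simulated data, as was the fit. The planned test was run on the reads so recovered. Reads were compared with limma voom, with the recovered size factors, for genes with a mean normalized count of at least 10, separately in exon and whole gene reads. Genes were named by rule: up to 4 members of each list with the smallest p, members a description needed, and genes the study followed. The members, lists and rules were chosen with earlier results of these data known. Gene names are those of the tables, matched to list symbols directly or through RefSeq synonyms (assembly ARS-UCD2.0). Some genes that the rule would name are not reported here. Alternatives were other scalings, filters, tests, weights and libraries; 2 were added after the data were seen. Intervals for counting error were not needed, since spread between libraries was used. Tools were R 4.3.3, limma 3.58.1, Python 3.11.15, numpy 2.4.6, pandas 2.3.3 and matplotlib 3.10.9.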

Additional observations from a re-analysis of the deposited data

Results flagged for a closer look

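Reads of the ERCC spike-in RNAs, a set of synthetic transcripts added in known amounts, made up 39.8% of the summed mean exon counts of the MNEB table. The control for this share was the other tables, since no library without spike-ins was analysed here: it was 31.0% for prepartum against MNEB at 1 wkpp, 32.2% for SNEB against MNEB at 1 wkpp, 18.5% for the groups at 16 wkpp, 4.96% for prepartum against SNEB at 1 wkpp and 3.83% for SNEB at 1 against 16 wkpp. Among the MNEB libraries, the reads of the 86 recovered spike-ins, which leave out 6 abundant ones, were per 100 exon reads 2.89, 13.6 and 23.6 at 1 wkpp and 3.52, 10.4 and 8.44 at 16 wkpp, lowest in the deepest library of each week. The part of this spread in the results was not tested.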

How the results depend on the processing

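The count of DEGs was 0 under all 19 alternatives, which were limma fits (voom or trend) and no count-based test, and the test of the change between MNEB and SNEB gave 0 genes under all 15. In exon reads at an adjusted p below 0.05, 26 genes passed with all 15 libraries sharing the spread, and leaving out 1 library at a time gave 0 to 3 genes: 3 (SCD, POSTN and ANXA8L1) without library B of 16 wkpp and 1 (IGJ) without library C of 16 wkpp. In SCD, POSTN, ANXA8L1 and IGJ the library left out was the lowest of 16 wkpp, so the smaller p adds no support. In settings chosen after seeing the data, 10 passed without libraries B and C of 1 wkpp, where the lone library is assumed to vary like the others, and 209 with limma-trend on 15 libraries (78 in whole gene reads). In whole gene reads, 2685 genes passed without library A of 1 wkpp, which leaves the libraries B and C that stood apart, and 173 with quality weights for each library. The added count of genes at an unadjusted p below 0.05 in both kinds of reads was 564 to 1281 without single libraries (1281 without library A of 1 wkpp) and 1406 with limma-trend on 15 libraries. No paired analysis was possible because the recovered libraries could not be tied to cows or to numbered samples.

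List medians moved by more than their spread in some settings. In whole gene reads the median was 0.16 for cell division, -0.63 for the clock, -0.52 for insulin and growth hormone signalling and 0.54 for lymphatic markers, and -0.19 for insulin and growth hormone signalling without its member of highest count. Without libraries B and C of 1 wkpp it was -1.04 for B and plasma cells, -0.52 for Schwann cells, 0.65 for adipocyte identity, 0.94 for endothelium, 0.038 for cell division, -0.68 for the clock, -1.03 for fibroblasts, 0.45 for hypoxia, -0.18 for insulin and growth hormone signalling, 1.24 for interferon-stimulated genes, -1.76 for keratinocytes, 1.75 for macrophages, -0.56 for mammary epithelium and -0.31 for oxidative phosphorylation. Leaving out single libraries gave -0.87 to 0.48 for B and plasma cells, -0.32 to -0.075 for cell division, -0.33 to 0.28 for fatty acid uptake and oxidation, -0.36 to -0.14 for insulin and growth hormone signalling, -1.49 to 1.16 for keratinocytes, -0.082 to 0.62 for lipolysis, -0.45 to 0.33 for lymphatic vessels, -0.64 to 1.59 for mammary epithelium, -0.12 to 0.82 for skeletal muscle and -0.35 to 0.34 for triacylglycerol assembly. For the other lists it gave 0.012 to 0.82 for adipocyte markers, -0.50 to -0.088 for cholesterol synthesis, -0.24 to -0.058 for chaperones, -0.019 to 0.31 for hypoxia, -0.19 to 0.050 for glucocorticoid-responsive genes, -0.16 to 0.72 for interferon-stimulated genes, -0.17 to 0.41 for adipocyte identity, -0.20 to 0.44 for lymphocytes, -0.27 to 0.82 for Schwann cells, -0.24 to 0.20 for mast cells, -1.01 to 1.16 for the erythrocyte gene, -0.83 to -0.34 for fibroblasts, -1.16 to -0.55 for smooth muscle, 0.26 to 0.68 for endothelium, 0.30 to 1.37 for macrophages, -0.46 to -0.26 for the clock, -0.54 to -0.30 for collagens, -0.88 to -0.41 for ribosomal proteins, -0.74 to -0.41 for fatty acid synthesis and -0.52 to -0.37 for oxidative phosphorylation. LEP, 0.13 with all 6 libraries, was -0.32 in whole gene reads, -0.53 without libraries B and C of 1 wkpp, and -0.23 to 1.10 without single libraries. Other genes that changed sign had been given as levels only. Without single libraries the difference was -0.051 to 0.46 for ACACA, -0.53 to 0.14 for ACLY, -0.81 to 0.60 for FABP4, -0.042 to 0.93 for PLIN1 and -0.59 to 2.84 for SPP1. ACACA was at -0.13 in whole gene reads and -0.097 without libraries B and C of 1 wkpp, and FABP4 at -0.21 in whole gene reads and -0.17 with quality weights. The causes were not tested.

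With 3 libraries a group, and 2028309 to 2911041 exon reads in the 4 shallower ones, genes at a few reads could not be compared. Lettered libraries are not known animals. Log2 levels correlated at 0.77 to 0.97 between the 6 libraries in whole gene reads and at 0.90 to 0.95 in exon reads.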

Other observations

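Levels before calving, on the scale of all 15 libraries, place some of the named genes. ADM averaged 1410 ± 328 (SD, n = 3) prepartum, 7232 ± 2859 in MNEB at 1 wkpp and 2153 ± 1119 at 16 wkpp, and 8905 ± 4496 and 2355 ± 489 in SNEB at the same weeks. HIF3A averaged 154 ± 82.1 prepartum, and 3068 ± 1539 and 972 ± 567 in MNEB, so that its level at 16 wkpp also lay above the prepartum mean. BHLHE40 averaged 1017 ± 212 prepartum, 328 ± 105 in MNEB at 1 wkpp and 1068 ± 446 at 16 wkpp. FMOD averaged 5930 ± 1069 prepartum and 503 ± 70.1 and 1429 ± 318 in MNEB, against 2157 ± 1537 and 6013 ± 1005 in SNEB. These levels were not tested against each other.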
